A study of Homo sapiens with 6 samples.

Results

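The genes described here handle iron and heme. They are 10 genes, taken by name from the 27754 in the count files: TFRC, SLC11A2, FTH1, FTL, NCOA4, SLC40A1, HEPHL1, ACO1, IREB2 and HMOX1. Their mRNA was measured by RNA sequencing in T47D cells, an established line of human luminal breast cancer grown in RPMI with serum. Normoxia was the control at 20% O2, and hypoxia was 48 h in a chamber that the labels set at 0.5% O2, while the study's text names another O2 level. Each condition had 3 libraries, numbered 1 to 3. The labels do not say whether these came from separate cultures. A legend in the study that covers several assays speaks of independent experiments, and its methods treat hypoxia and normoxia as paired. The p-values measure the spread between these libraries.

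Cells take up iron bound to transferrin through the transferrin receptor, TFRC, and release it inside endosomes, from which SLC11A2 (DMT1) carries it into the cytosol. Iron not in use is stored in ferritin, a shell of heavy (FTH1) and light (FTL) chains, and NCOA4 brings ferritin to lysosomes for breakdown. SLC40A1 (ferroportin) is the iron exporter, and HEPHL1 belongs to the multicopper ferroxidases, which oxidise ferrous iron. ACO1 and IREB2 encode the iron regulatory proteins IRP1 and IRP2. When iron is scarce, these bind hairpins called iron-responsive elements in mRNA. A hairpin in the 5′ UTR then blocks translation, and hairpins in the 3′ UTR of TFRC protect the mRNA from decay. HMOX1 breaks down heme and releases its iron.

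The hairpins are shown because the members differ in where they carry them. UTRs of GENCODE protein-coding transcripts were searched on the sense strand for a C, then 5 bases, then the loop CAGTGN, then 5 bases that pair with the first 5. With all 5 pairs required (G-T pairs allowed), 4 of the 10 members held at least 1 match, against 0.909% of the 19807 genes searched. Capitals mark the bulged C and the loop, and coordinates are GRCh37. FTH1 (chr11:61735046-61735075, minus strand), FTL (chr19:49468591-49468620, plus strand) and SLC40A1 (chr2:190445387-190445416, minus strand) had it in exon 1, in the 5′ UTR. TFRC had 4 matches in exon 19, in the 3′ UTR, on the minus strand at chr3:195777850-195777879 (a), chr3:195777446-195777475 (b), chr3:195777381-195777410 (c) and chr3:195777334-195777363 (d).
FTH1: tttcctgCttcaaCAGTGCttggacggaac
FTL: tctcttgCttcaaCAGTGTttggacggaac
SLC40A1: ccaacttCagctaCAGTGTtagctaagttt
TFRC a: taattatCggaagCAGTGCcttccataatt
TFRC b: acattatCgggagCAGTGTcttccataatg
TFRC c: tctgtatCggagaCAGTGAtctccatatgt
TFRC d: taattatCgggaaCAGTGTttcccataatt

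With 4 of the 5 pairs, SLC11A2 also had a match in its 3′ UTR (chr12:51382052-51382081, minus strand, exon 16), shown because SLC11A2 is known for isoforms with and without such an element.
SLC11A2: tagccatCagagcCAGTGTgtttctatggt
At this looser setting 6.41% of genes matched, and 7 members did, with ACO1 and IREB2 among them. HEPHL1, NCOA4 and HMOX1 had no match in the letters searched. A match is a description of sequence and not a measure of binding. All sites printed here lay inside exons that were counted, and the counts do not separate isoforms.

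The libraries held between 32989104 and 89883409 counts, hypoxia replicate 3 being the deepest. At these depths 3 counts equal 0.0334 to 0.0909 CPM (counts scaled to a common library size), a floor that covers counting error only. VEGFA and CA9, known to respond to low O2, rose from 39.2 ± 6.51 to 803.7 ± 35.8 CPM and from 0.610 ± 0.380 to 24.7 ± 5.92 CPM (SD, n = 3, adjusted p = 5.16e-06 and 6.16e-05 from edgeR's quasi-likelihood test). CA9 had 37, 26 and 6 counts in normoxia and passed the filter on low counts through its hypoxia libraries. All 9 luminal markers were present, and their sum was lower in hypoxia (10190 to 13470 CPM) than in normoxia (13960 to 18120 CPM) without overlap. Of these, 4 were called lower, namely GATA3, FOXA1, ESR1 (0.275-fold) and PGR (0.131-fold), and 5 were not called. Over all genes tested, 29.1% were lower at an adjusted p under 0.05. Most of the luminal sum was KRT8, KRT19 and KRT18 (5801, 3415 and 2378 CPM in normoxia, 4070, 3329 and 1853 CPM in hypoxia). None of these keratins was called, and their groups overlapped. Basal or mesenchymal-like markers (8 of 9 above 3 counts in a library) summed to 201 to 223 CPM in normoxia and 245 to 337 CPM in hypoxia. Of these, VIM had 395 and 1001 counts in the libraries numbered 3 and at most 35 in the others. CAV1 (39 and 198, against at most 15) and MSN (60 and 166, against at most 21) had the same pattern. Results of the members, and of some listed genes, are therefore also given without replicate 3. Erythroid markers summed to at most 0.279 CPM, with HBB among those at 0, and macrophage markers to 1.84 to 2.34 CPM in normoxia and 7.68 to 9.27 CPM in hypoxia, with CD163 at 0. Most of the macrophage sum was CD68 (1.31 ± 0.335 CPM in normoxia and 6.80 ± 1.03 in hypoxia), while PTPRC had at most 5 counts in a library. Most of the basal or mesenchymal-like sum was LGALS1 (184.5 ± 4.03 and 211 ± 31.5 CPM), which was not called (adjusted p = 0.149 in the same test). AXL (3.48 ± 0.820 and 13.6 ± 2.20 CPM) and S100A4 (16.1 ± 4.26 and 46.1 ± 11.8 CPM) were called higher without overlap. Of the 7 basal or mesenchymal-like markers tested, 2 were higher and 0 lower, beside 30.4% and 29.1% of all genes tested. The part of these marker levels in the results was not tested. In such bulk samples, fewer cells of a type and less RNA per cell cannot be told apart.

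All 10 members passed the filter on low counts, HEPHL1 through its hypoxia libraries alone. In edgeR's quasi-likelihood test of 15657 genes, 4 members were higher in hypoxia (TFRC, FTH1, FTL and HEPHL1), 1 was lower (ACO1) and 5 were not called at an adjusted p under 0.05. Over all genes tested, 30.4% were higher and 29.1% lower by this rule, and with 10 members nothing particular to them is read from these counts. With upper-quartile scaling, 5972 genes were higher and 3285 lower, against 4765 and 4551. When the replicate number was used as a block, SLC40A1 also passed and 2 members were lower, against 35.2% of all genes. The median log2-fold change of the members was 0.10, beside 0.03 for all genes.

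**Figure D1:**
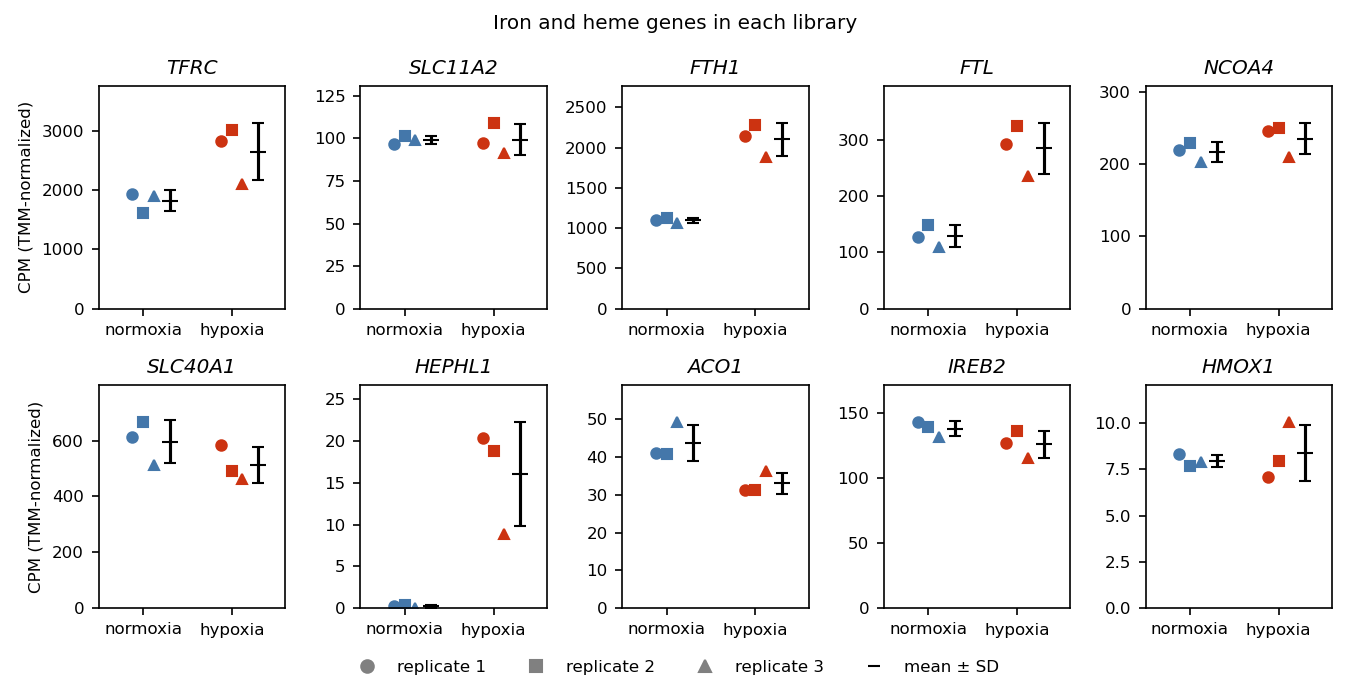
TMM-normalized CPM (vertical axis, from 0) of the 10 genes in each library, with normoxia in blue and hypoxia in red. Symbols give the replicate number and black marks the mean ± SD of 3 libraries. TFRC, FTH1, FTL and HEPHL1 were called higher in hypoxia and ACO1 lower, and the other genes were not called. Among all genes tested, 30.4% were called higher and 29.1% lower.

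Levels between genes were compared per length, as CPM per kilobase of exon. FTH1 was the most abundant member, at 892 ± 22.9 CPM per kilobase in normoxia and 1710 ± 165 in hypoxia (SD, n = 3), which placed it 50th and 19th among all genes tested. TFRC followed at 344 ± 33.8 and 501 ± 91.2. In normoxia SLC40A1 (178 ± 23.1) and FTL (148 ± 22.4) overlapped, while in hypoxia FTL (328 ± 51.5) stood above SLC40A1 (153 ± 19.2) in every library. NCOA4 was at 53.3 ± 3.37 and 57.7 ± 5.32. IREB2 (19.0 ± 0.821), SLC11A2 (14.6 ± 0.368) and ACO1 (12.1 ± 1.32) were close in normoxia without overlapping. In hypoxia IREB2 (17.4 ± 1.44) and SLC11A2 (14.6 ± 1.33) overlapped, and ACO1 was at 9.12 ± 0.795. HMOX1 was low at 5.01 ± 0.206 and 5.26 ± 0.955, and HEPHL1 was lowest in both conditions, at 0.0297 ± 0.0224 and 2.69 ± 1.05. TFRC, FTH1 and FTL together took 0.283% to 0.305% of all counts in normoxia and 0.430% to 0.595% in hypoxia.

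**Figure D2:**
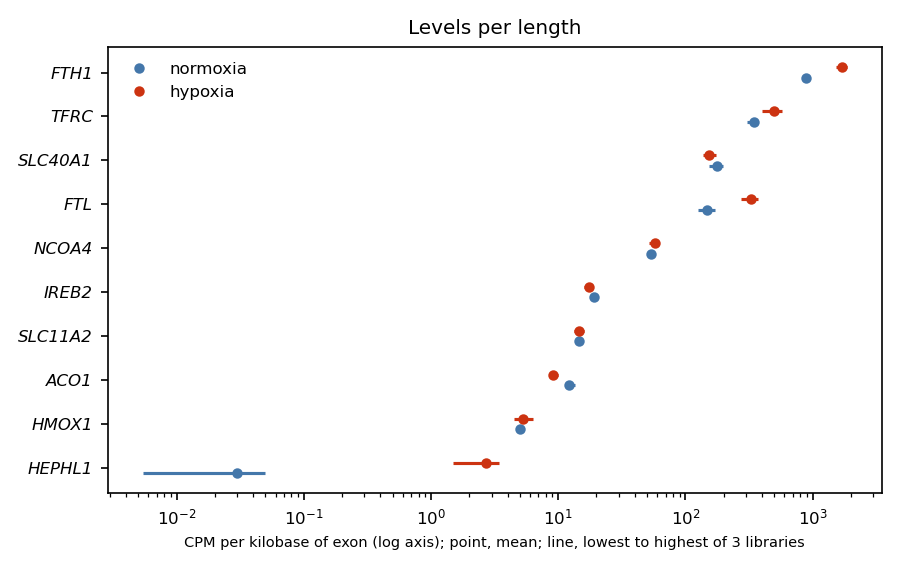
Levels per length, as CPM per kilobase of exon on a log axis, in normoxia (blue) and hypoxia (red). Points are means and lines run from the lowest to the highest of 3 libraries. Levels run from 0.0297 for HEPHL1 in normoxia to 1710 for FTH1 in hypoxia.

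The iron uptake receptor rose, while the endosomal iron carrier showed no detectable change. TFRC (chr3:195776155-195809032) was at 1943, 1618 and 1911 CPM in normoxia replicates 1, 2 and 3 and at 2827, 3023 and 2105 CPM in hypoxia replicates 1, 2 and 3. All hypoxia libraries were above all normoxia libraries, but hypoxia replicate 3 only narrowly. The change was 1.45-fold (log2 change 0.54 ± 0.15 SE, adjusted p = 0.0138 in this test). Without replicate 3 of both conditions it was 0.72 (adjusted p = 1.94e-06). The call was lost when normoxia replicate 2 (adjusted p = 0.054), hypoxia replicate 1 (0.0533), hypoxia replicate 2 (0.0529), both libraries numbered 1 (0.104) or both numbered 2 (0.139) were left out, with log2-fold changes from 0.35 to 0.54.

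SLC11A2 (chr12:51373566-51422058) was at 96.7, 102 and 99.3 CPM in normoxia and 97.5, 109 and 91.3 CPM in hypoxia, with the hypoxia values on both sides of the normoxia values. Its fold change had a 95% interval of 0.873 to 1.15 (adjusted p = 0.998). This interval is for all its isoforms together, including those without the 3′ UTR element printed above.

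Of 14 genes listed for iron uptake, 10 were higher, 1 was lower and 3 did not pass, with a median log2-fold change of 0.62. All genes tested had 30.4% higher, 29.1% lower and a median of 0.03. TF, among those higher, had 8, 6 and 0 counts in normoxia and passed the filter through its hypoxia libraries. STEAP4, a metalloreductase, rose from 0.776 ± 0.285 to 4.59 ± 0.379 CPM (log2 change 2.58 ± 0.27 SE, adjusted p = 2.07e-04). LCN2, which binds iron-loaded siderophores, rose from 15.4 ± 5.08 to 52.2 ± 4.46 CPM (log2 change 1.76 ± 0.22 SE, adjusted p = 4.38e-04). The gene that fell was STEAP3, the endosomal ferrireductase of the transferrin cycle, from 45.01 ± 14.5 to 20.2 ± 2.32 CPM (log2 change -1.15 ± 0.21 SE, adjusted p = 0.00237). Thus the receptor and the reductase of the same cycle moved in opposite directions. Without hypoxia replicate 1, or without both libraries numbered 1, 7 and 6 of these genes passed. Over all genes, these fits called 3910 and 2648 higher and 3561 and 2191 lower, against 4765 and 4551 with all libraries.

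Both ferritin chains rose. FTH1 (chr11:61731757-61735132) was at 1096, 1124 and 1068 CPM in normoxia replicates 1, 2 and 3 and at 2141, 2282 and 1882 CPM in hypoxia. The lowest hypoxia library was far above the highest normoxia library. The change was 1.92-fold (log2 change 0.94 ± 0.09 SE, adjusted p = 1.83e-04), and it ranged from 0.87 to 1.01 with libraries left out. Some FTH1 exon bases are shared with BEST1 on the other strand, a gene with 6 to 23 counts in normoxia and 713 to 2358 in hypoxia. The part of such reads in the FTH1 counts was not tested.

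FTL (chr19:49468566-49470136) was at 128, 148 and 109 CPM in normoxia and 294, 325 and 237 CPM in hypoxia. Its change was 2.22-fold (log2 change 1.15 ± 0.15 SE, adjusted p = 4.88e-04), with a range of 1.04 to 1.27 with libraries left out. FTH1 and FTL are known for many processed copies in the genome, and how reads with several matches were counted is not given, so the level of each chain is uncertain. The copies listed in the files, FTH1P3, FTH1P18 and FTLP10, had at most 34 counts in any library.

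The ratio of FTH1 to FTL counts per kilobase was 6.08, 5.37 and 6.92 in normoxia and 5.16, 4.97 and 5.63 in hypoxia. It was lower in hypoxia in all 3 same-numbered pairs, and the groups overlapped, since hypoxia replicate 3 lay above normoxia replicate 2. The mean log2 ratio differed by -0.21 (hypoxia minus normoxia). A two-sided exact permutation test gave p = 0.2, but with 3 against 3 libraries it cannot go below 0.1, so it does not decide whether the balance of the chains shifted.

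NCOA4 (chr10:51565108-51590734), the receptor that takes ferritin to lysosomes, was at 220, 230 and 203 CPM in normoxia and 246, 250 and 211 CPM in hypoxia. It was higher in hypoxia in each same-numbered pair, but the groups overlapped, with a log2 change of 0.11 (± 0.09 SE, adjusted p = 0.313). Without both libraries numbered 3 it passed (0.15, adjusted p = 0.0338), and with upper-quartile scaling it was 0.27 (adjusted p = 0.057). Of the 8 genes listed for storage and iron chaperones, 6 were tested. These had 2 higher and 1 lower (30.4% and 29.1% over all genes) and a median log2-fold change of 0.12. The one that fell was PCBP1, an iron chaperone that delivers iron to ferritin, from 306 ± 22.0 to 192 ± 19.1 CPM (log2 change -0.68 ± 0.10 SE, adjusted p = 7.66e-04). Its relative PCBP2 was at 676 ± 14.0 and 741 ± 15.7 CPM (adjusted p = 0.133, and 0.0474 with the replicate block).

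**Figure D3:**
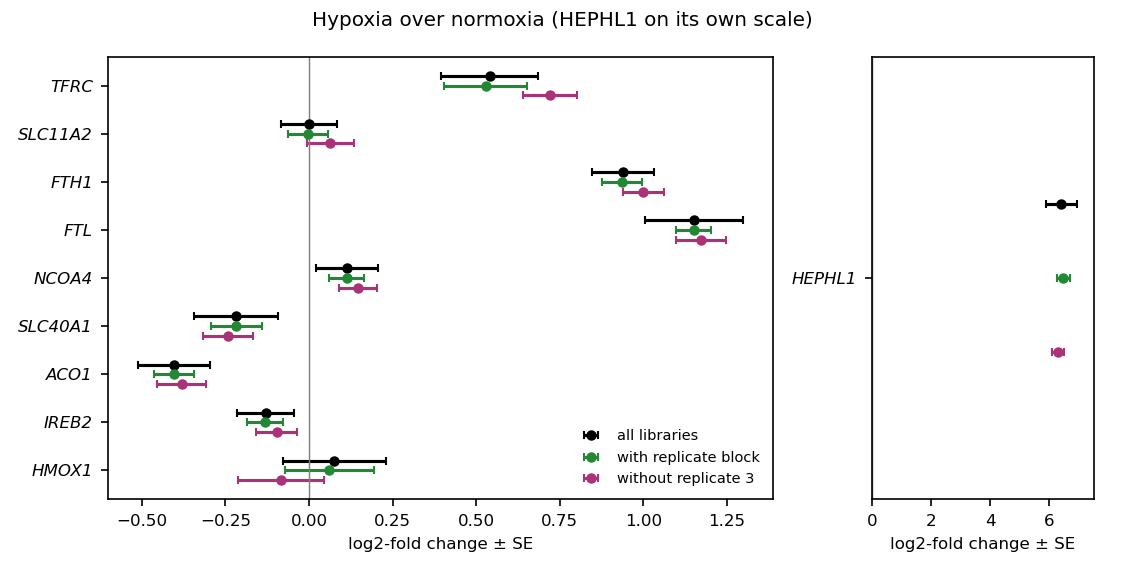
Log2-fold change of hypoxia over normoxia (horizontal axis) of each gene with its standard error, for all libraries (black), with the replicate number as a block (green) and without replicate 3 (purple). HEPHL1 has its own axis. FTH1 and FTL stay near 1 in all 3 fits, while TFRC moves from 0.54 to 0.72 without replicate 3.

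HEPHL1 and another ferroxidase rose, while the call for the exporter depended on the fit. SLC40A1 (chr2:190425316-190445537) was at 611, 666 and 513 CPM in normoxia and 585, 491 and 462 CPM in hypoxia. It was lower in hypoxia in all 3 same-numbered pairs, and the groups overlapped. Its log2 change was -0.22 (± 0.13 SE, adjusted p = 0.165). With the replicate block it was -0.22 with an adjusted p of 0.0315, without normoxia replicate 3 it was -0.32 (0.0442), and without both libraries numbered 3 it was -0.24 (0.01). With upper-quartile scaling it was -0.06 (0.714). The 5′ UTR hairpin it shares with the ferritins acts on translation, which counts of mRNA do not measure, and its part here was not tested.

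HEPHL1 (chr11:93754378-93847374) had the largest change of the members. It had 8, 11 and 1 counts in normoxia and 825, 687 and 812 counts in hypoxia, or 0.203, 0.296 and 0.0323 CPM against 20.4, 18.8 and 8.88 CPM. Normoxia replicate 3 lay at or under the floor, and hypoxia replicate 3 was the lowest of its group. Its log2 change was 6.41 (± 0.52 SE, adjusted p = 9.02e-05), with a 95% interval of 36.9-fold to 197-fold. The normoxia counts would not have passed the filter (minimum count 10) by themselves, so HEPHL1 was tested because of its hypoxia libraries. Its place among the genes tested, where 29 of 15657, itself included, had a log2-fold change this high, is therefore a description only. With libraries left out it ranged from 5.99 to 6.93.

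Of the 4 genes listed for export and ferroxidases, 2 were higher and 0 lower, beside 30.4% and 29.1% of all genes. CP (ceruloplasmin), the ferroxidase of plasma, was at 5.24, 6.58 and 6.36 CPM in normoxia and 117, 119 and 189 CPM in hypoxia. It rose by 4.55 on the log2 scale (SE 0.23, adjusted p = 2.39e-05). HEPH (hephaestin) was at 2.17 ± 0.473 and 3.27 ± 0.835 CPM (log2 change 0.61, adjusted p = 0.0675, and 0.00971 with the replicate block). With the block, 3 of these genes were higher and SLC40A1 was lower.

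Of the iron regulatory proteins, IRP1 mRNA fell. ACO1 (chr9:32384601-32450832) was at 41.0, 40.9 and 49.2 CPM in normoxia and 31.4, 31.3 and 36.3 CPM in hypoxia, with all hypoxia libraries below all normoxia libraries. Its log2 change was -0.40 (± 0.11 SE, adjusted p = 0.0128), or 0.756-fold. The call was lost with upper-quartile scaling (-0.25, adjusted p = 0.0503), without hypoxia replicate 1 (0.0528) and without both libraries numbered 1 (0.101) or 2 (0.0618). IREB2 (chr15:78730518-78793798) was at 143, 140 and 131 CPM in normoxia and 127, 136 and 115 CPM in hypoxia. Its hypoxia values were lower in each same-numbered pair but overlapped those of normoxia (log2 change -0.13 ± 0.08 SE, adjusted p = 0.215). The 95% interval of its fold change was 0.799 to 1.05. IRP2 is known to be controlled mainly by the breakdown of the protein, which counts of mRNA do not show.

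Of 11 genes listed for the regulatory proteins and the hepcidin axis, 8 were tested. These had 3 higher and 4 lower (30.4% and 29.1% over all genes) and a median log2-fold change of -0.19. Of those higher, BMP6 (3, 1 and 9 counts in normoxia) and ERFE (6, 8 and 5) passed the filter through their hypoxia libraries. HFE, which binds the transferrin receptor, fell from 34.4 ± 2.40 to 13.2 ± 0.373 CPM (log2 change -1.38 ± 0.09 SE, adjusted p = 4.76e-05). HERC2, a ubiquitin ligase, fell from 118 ± 8.10 to 69.6 ± 3.51 CPM (-0.76 ± 0.08 SE, adjusted p = 2.43e-04). NEO1, a receptor that takes part in BMP signals to hepcidin, rose from 39.9 ± 9.46 to 56.8 ± 9.01 CPM, with overlapping groups (0.51 ± 0.19 SE, adjusted p = 0.0482), a call that 6 of the fits with libraries left out did not keep. Hepcidin itself (HAMP) had 0 counts in every library. FBXL5, the iron-sensing adaptor that marks IRP2 for breakdown, was named after its values were seen and went from 34.1 ± 1.03 to 28.7 ± 2.58 CPM (-0.25 ± 0.09 SE, adjusted p = 0.0457). This call was near the threshold, also without both libraries numbered 3 (adjusted p = 0.0498). With edgeR's exact test 3 genes of this list were lower, and with upper-quartile scaling 2 were. Without hypoxia replicate 1, 3 of the 8 passed, as also without both libraries numbered 1 or 2. Over all genes, these fits called 3910, 2648 and 3554 higher and 3561, 2191 and 3133 lower, against 4765 and 4551 with all libraries.

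HMOX1, a gene known for strong induction by heme and oxidants, showed no detectable change. HMOX1 (chr22:35777060-35790207) was at 8.31, 7.66 and 7.91 CPM in normoxia and 7.09, 7.96 and 10.0 CPM in hypoxia. The hypoxia libraries lay below, within and above the normoxia range. Its log2 change was 0.08 (± 0.15 SE, adjusted p = 0.691), and the 95% interval ran from 0.823-fold to 1.35-fold. Without both libraries numbered 3 the estimate was -0.08 (adjusted p = 0.582).

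Genes listed for heme degradation, transport and sensing moved in both directions, but none of the breakdown enzymes HMOX1, HMOX2, BLVRA and BLVRB was called higher. Of 17 genes listed for heme degradation, transport and sensing, HMOX1 included, 16 were tested. These had 3 higher, 6 lower and a median log2-fold change of -0.16, beside 30.4% higher and 29.1% lower over all genes. BACH1, the heme-binding repressor of HMOX1, was at 38.1, 36.98 and 34.6 CPM in normoxia and 88.8, 88.9 and 84.7 CPM in hypoxia. It rose by 1.26 on the log2 scale (SE 0.08, adjusted p = 3.99e-05). HMOX2, the constitutive heme oxygenase, fell from 71.6 ± 9.27 to 38.4 ± 2.32 CPM (-0.90 ± 0.11 SE, adjusted p = 3.92e-04). BLVRA, which reduces the biliverdin that heme oxygenase makes, fell from 85.5 ± 16.3 to 47.6 ± 7.98 CPM (-0.84 ± 0.16 SE, adjusted p = 0.00296). LRP1, a large endocytic receptor that takes up heme bound to hemopexin, rose from 7.10 ± 3.26 to 57.0 ± 6.98 CPM (2.99 ± 0.32 SE, adjusted p = 2.29e-04).

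HMOX1 is also a target of NRF2. Of 13 genes listed as the NRF2 and BACH1 axis and its targets, 12 were tested. These had 5 higher and 4 lower (30.4% and 29.1% over all genes). The median log2-fold change was -0.15, and 0.005 with upper-quartile scaling. SLC7A11, the cystine importer, rose from 8.37 ± 1.29 to 24.3 ± 4.21 CPM (1.54 ± 0.17 SE, adjusted p = 2.41e-04). MAFK, a small MAF partner of both factors, rose from 86.8 ± 18.2 to 156 ± 21.2 CPM (0.85 ± 0.16 SE, adjusted p = 0.00256). NQO1, a quinone reductase, fell from 442 ± 43.6 to 182 ± 18.8 CPM (-1.28 ± 0.11 SE, adjusted p = 9.89e-05).

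Heme is made from glycine and succinyl-CoA in a chain of enzymatic steps, the last of which inserts iron. Of 14 genes listed for heme synthesis, 13 were tested, with 0 higher, 8 lower and 5 that did not pass, and a median log2-fold change of -0.50. The shares over all genes were 30.4% higher and 29.1% lower. ALAD, which makes porphobilinogen, was at 67.8, 70.7 and 77.6 CPM in normoxia and 35.9, 35.0 and 39.6 CPM in hypoxia (log2 change -0.97 ± 0.09 SE, adjusted p = 1.42e-04). Other enzymes of the chain were named after their values were seen. ALAS1 (-0.57), UROD (-0.77), CPOX (-0.91), PPOX (-0.38) and FECH (-0.50), which inserts the iron, fell, with adjusted p between 0.00166 and 0.0118. UROS stood at -0.23 and did not pass (adjusted p = 0.154), but did with the replicate block (0.0118) and without both libraries numbered 3 (0.019). ALAS2, the erythroid form of the starting enzyme, was not tested for low counts. With libraries left out, 7 to 9 genes of this list passed. With upper-quartile scaling, 7 were lower and 1 was higher.

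**Figure D4:**
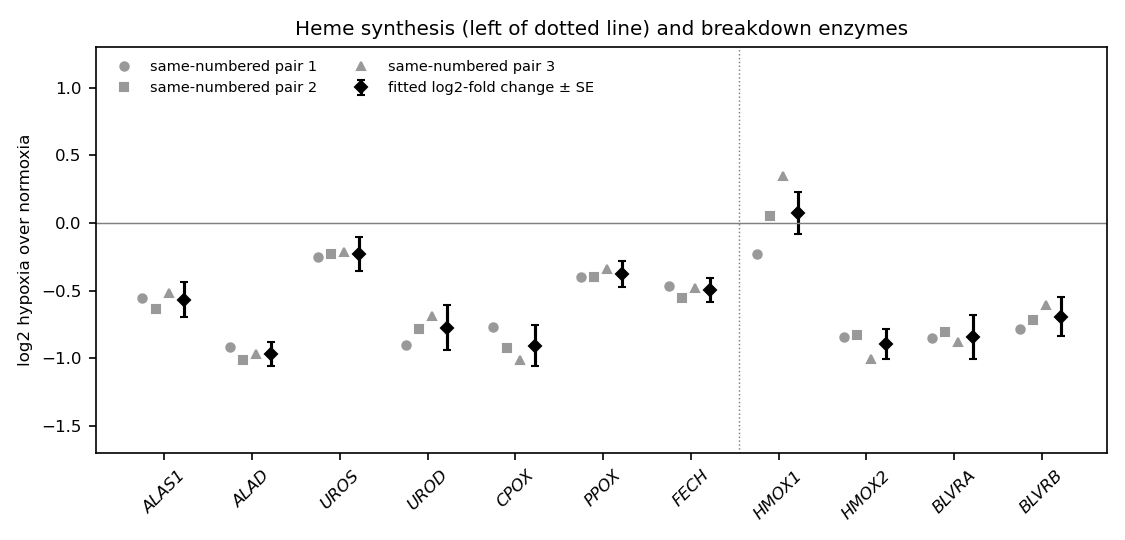
Log2 ratio of hypoxia over normoxia (vertical axis) for 11 enzymes of heme synthesis and breakdown. Grey symbols are the 3 same-numbered pairs of libraries and black diamonds the fitted log2-fold change ± standard error. HMOX1 lies near 0, at 0.08, and the other enzymes shown lie below 0, from -0.97 for ALAD to -0.23 for UROS.

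Iron is also used to build iron-sulfur clusters. Of 20 genes listed for mitochondrial iron import and cluster assembly, 2 rose, 10 fell and 8 did not pass, with a median log2-fold change of -0.28. Among all genes, 30.4% rose and 29.1% fell by the same rule. SLC25A37 (mitoferrin 1), which carries iron into mitochondria, rose from 32.2 ± 1.69 to 67.6 ± 4.74 CPM (1.07 ± 0.09 SE, adjusted p = 9.05e-05). FDXR rose from 44.99 ± 1.59 to 56.7 ± 9.86 CPM (0.34 ± 0.12 SE, adjusted p = 0.0454), a call that DESeq2 (adjusted p = 0.0563) and 6 fits with libraries left out did not keep. NFS1, the cysteine desulfurase that supplies the sulfur, fell from 108 ± 11.4 to 59.4 ± 5.31 CPM (-0.86 ± 0.11 SE, adjusted p = 4.09e-04), and ISCA2 from 35.3 ± 1.15 to 22.5 ± 1.26 CPM (-0.65 ± 0.08 SE, adjusted p = 5.04e-04). The scaffold gene ISCU was at 57.4 ± 3.79 and 51.6 ± 1.53 CPM (adjusted p = 0.132, and 0.0448 with the replicate block). Without both libraries numbered 1, 3 genes of this list passed, and without both numbered 2, 7 passed. Calls over all genes were fewer in these fits too (2648 and 3554 higher, 2191 and 3133 lower, against 4765 and 4551 with all libraries).

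In the cytosol, 8 of 10 cluster assembly genes were lower and 0 were higher, with a median log2-fold change of -0.63. NDOR1, a reductase that feeds electrons to the pathway, fell from 138 ± 32.5 to 57.9 ± 13.4 CPM (-1.25 ± 0.20 SE, adjusted p = 0.00141). NUBP2, part of the cytosolic scaffold, fell from 85.7 ± 19.2 to 50.2 ± 10.9 CPM (-0.77 ± 0.19 SE, adjusted p = 0.0102, and 0.062 without both libraries numbered 1). Without both libraries numbered 1, 5 of these genes passed, while over all genes this fit called 2648 higher and 2191 lower, against 4765 and 4551. Counting each gene of all the iron and heme lists once, 91 of 98 were tested, with 22 higher, 38 lower and a median log2-fold change of -0.18. Over all genes 30.4% were higher and 29.1% lower, with a median of 0.03. With the replicate block, 27 of the 91 were higher and 47 lower, beside 5733 and 5511 of the 15657 genes.

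Promoters were compared because some of these genes are known targets of hypoxia-inducible factors, whose core site reads ACGTG or GCGTG. RefSeq promoters (250 bases before to 50 after the start, GRCh38.p14) were held for 8 members, all but FTH1 and HMOX1, and were searched on both strands. Of these, 5 held the letters at least once, against 48.4% of 27305 promoters, and with 8 promoters nothing particular to the members is read from this. FTL, which rose, held 3 cores. TFRC, which rose, held 1 at position -88 from the start, and ACO1, which fell, held 1 at position -5. Both single cores are shown, in capitals, as members that moved in opposite directions.
TFRC promoter: cctcgcgagcgtACGTGcctcaggaagtg
ACO1 promoter: agagggggcggaGCGTGgaggcggcagct
SLC11A2, which showed no detectable change, held 4 cores, IREB2 held 1, and HEPHL1, SLC40A1 and NCOA4 held 0 in this window.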

How the data were processed

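Gene counts were analysed for 6 libraries of T47D cells, 3 from normoxia and 3 from hypoxia, grouped and numbered by their labels. Per the labels and the methods, the authors trimmed reads (Skewer), mapped them to GRCh37 (STAR 2.5.2a) and deposited featureCounts 1.5.1 counts for RefSeq genes, without normalization. The strand setting and the handling of reads with several matches are not given in the sources used here.

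Genes were kept by edgeR's filterByExpr (minimum count 10, minimum total 15). The genes kept were tested with edgeR 4.0.16 (quasi-likelihood, TMM normalization, condition as the only term, R 4.3.3) and adjusted over all of them by Benjamini-Hochberg at 0.05. The test was also tried on simulated counts. The members and gene lists were chosen with earlier results of these data known. All 10 members are described. From each other list, the 2 genes with the largest change in each direction are named, among called genes that averaged 100 counts or more and moved one way in every same-numbered pair. Some items are not reported here. Other names were chosen after their values were seen or belong to genes that did not pass.

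Libraries with the same number shared deviations from their condition's mean (correlations across genes of 0.338, 0.422 and 0.575), so the replicate number, which comes from the labels, was also used as a block. As alternatives, DESeq2 1.42.0, the exact test of edgeR, other scalings, no filter, the block and left-out libraries were tried. Plots were drawn with matplotlib 3.10.9. Stem-loop letters were searched in GENCODE version 44 transcripts on GRCh37.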

Additional observations from a re-analysis of the deposited data

How the results depend on the processing

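FTH1, FTL and HEPHL1 kept their direction and passed an adjusted p of 0.05 under all 15 alternatives. TFRC lost its call in 5 of them and ACO1 in 4. Among members that did not pass, the estimate of SLC11A2 changed sign in 9 (0.00 in the analysis reported, -0.0031 with the replicate block, -0.0247 with DESeq2, -0.011 with relative log expression factors, -0.0049 with all genes counted, and -0.075 to 0.0636 with libraries left out), that of HMOX1 in 2 (-0.0865 to 0.213 with libraries left out) and that of IREB2 with upper-quartile factors (0.028), which moved the median over all genes from 0.028 to 0.185 on the log2 scale. When a log2 change of 1 or more was also required, 2373 genes rose and 768 fell, with 2 members higher and 0 lower. At that threshold 6 genes were called for iron uptake, 1 for storage and chaperones, 3 for the regulatory proteins and hepcidin axis, 1 for mitochondrial assembly, 1 for cytosolic assembly, 1 for heme synthesis, 2 for heme degradation and 3 for the NRF2 axis. With the replicate block, 2 members were lower and 4 genes of export and ferroxidases were called. With upper-quartile factors, 0 members were lower. With libraries left out, 2648 to 5751 genes were higher and 2191 to 5506 lower, with 3 to 5 members higher and 0 to 2 lower, and the counts called were 6 to 12 for iron uptake, 2 to 4 for export and ferroxidases, 3 to 8 for the regulatory proteins, 3 to 13 for mitochondrial assembly and 5 to 8 for cytosolic assembly. Fewer libraries enter each of these fits, and the cause of single changes was not tested. The FTH1 to FTL ratio kept its direction (-0.27 to -0.17). The replicate block changed the call of no other member than SLC40A1. HEPHL1 in normoxia rests on 1 to 11 counts a library.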
